A study of Homo sapiens with 3 samples.

Results

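The insulin-like growth factor (IGF) axis was examined in BE(2)-C cells, an established human neuroblastoma line with amplified MYCN, through 9 genes: the IGF binding proteins IGFBP2, IGFBP3, IGFBP4, IGFBP5 and IGFBP6, the receptors IGF1R and IGF2R, and the insulin receptor substrates IRS1 and IRS2. Rows of the array were assigned to a gene by the symbol in the platform annotation, which gave 8 of the 9 genes, each with 1 probe set, out of 14884 named genes. The level of IGFBP2 was not analysed here. The set was chosen by the log2 ratios of IGFBP5 to control, which were known to be low for both WDR5 siRNAs, so every ratio to control below is a description of these arrays. Cells of the same line were transfected for 40 hours with a control siRNA, with WDR5 siRNA-1 or with WDR5 siRNA-2, and each of these 3 groups was represented by 1 Affymetrix HuGene-2_0-st array of total RNA. WDR5 is a scaffold of the enzyme complexes that place methyl groups on histone H3. All cells were grown in medium with fetal calf serum, which is itself a source of IGFs.

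IGF1 and IGF2 are secreted growth factors that act mainly through IGF1R, a receptor tyrosine kinase at the cell surface. IGF2R binds IGF2 without a kinase of its own and carries it to lysosomes. The IGFBPs hold IGFs in the extracellular fluid and can limit or prolong their access to the receptor, and proteases that cut an IGFBP release the ligand. Active IGF1R phosphorylates IRS1 and IRS2, which pass the signal to PI3K, AKT and mTOR, while other adaptors lead to RAS and ERK. In neuroblastoma, IGF signalling is known as a growth and survival pathway.

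With 1 array per group, no value carries a replicate error and no p-value was computed. All values are log2 levels as deposited, and a ratio is the difference between a pair of arrays. Both ratios share the 1 control array. The array medians lay between 5.79 and 5.81, and the filter level for a kept gene, the median over genes of the mean log2 level, was 6.78, which left 7442 genes. Across kept genes, the difference between the WDR5 siRNA arrays had a median size of 0.13 and a 95th percentile of 0.76 on the log2 scale. WDR5 itself was lower by 1.56 with each siRNA on that scale, its value being exactly tied on the siRNA arrays. Of the 9 measured markers of adrenergic neuroblastoma cells (PHOX2A, DBH and others), 9 were at or above the filter level, against 2 of 3 Schwann and stromal markers and 1 of 5 leukocyte and endothelial markers. The ratios of the adrenergic markers to control ranged from -0.81 to 0.23 for siRNA-1 and from -0.35 to 0.73 for siRNA-2. DBH, an enzyme of noradrenaline synthesis, had ratios of -0.81 and 0.51, and CHGA, a secretory granule protein gene, of -0.47 and 0.73, so both lay on opposite sides of control. Each of the 3 measured Schwann and stromal markers was exactly tied on all arrays, so their mean log2 level of 6.196 on every array reflects ties. S100B (6.83) and SOX10 (6.96) lay only just above the filter level. The mean log2 level of the leukocyte and endothelial markers lay between 5.67 and 5.88. PECAM1, an endothelial adhesion molecule gene chosen here after its values were seen, lay below the filter level at 4.29 with control and was higher with both siRNAs, by 0.588 and 0.829. The other measured endothelial markers did not follow it, with VWF tied at 0 and KDR at a ratio of -0.10 with each siRNA. The measured leukocyte markers, also named after values were seen, lay above control with both siRNAs. CD14, below the filter level, had ratios of 0.13 and 0.28, and CD68, above it, of 0.38 and 0.08. The part of such markers in the results below was not tested, and in bulk RNA fewer cells of a type and less RNA per cell cannot be told apart.

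IGFBP5 and IGFBP4, the member binding proteins at or above the filter level, were lower with both WDR5 siRNAs. IGFBP5 encodes a secreted binding protein that also attaches to the extracellular matrix. Its log2 level was 9.49 with the control siRNA, 8.02 with WDR5 siRNA-1 and 8.51 with WDR5 siRNA-2. The control array was thus the highest and the siRNA-1 array the lowest. The levels correspond to 36.2% of control on the siRNA-1 array and 50.8% with siRNA-2. The siRNA arrays differed from each other by 0.49 on the log2 scale, a size exceeded by 12.9% of kept genes, and both stood further from control than from each other.

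IGFBP4, whose product is a secreted inhibitor of IGF action and the main substrate of the protease PAPPA, had a log2 level of 10.21 on the control array, 9.43 on the siRNA-1 array and 9.17 with siRNA-2. Control was again the highest of the 3, but here the siRNA-2 array was the lowest. IGFBP4 was 1.72-fold lower on the siRNA-1 array and 2.06-fold lower with siRNA-2, and the siRNA arrays differed by 0.26. The shared ratio of a gene is the 1 of its 2 ratios with the smaller absolute size, where both have the same sign. Ranked by the shared ratio, 7 of the 7442 kept genes lay below IGFBP5 and 18 below IGFBP4. Of the 6 members kept, 2 (IGFBP5 and IGFBP4) lay 1.5-fold or more below control on both siRNA arrays and 0 lay as far above it. Over all kept genes 0.847% were lower by this rule and 0.618% higher. Taking each siRNA alone, siRNA-1 gave 2 members lower (4.60% of kept genes) and 0 higher (2.24%), and siRNA-2 gave the same 2 lower (4.00%) and 1, IGF1R, higher (2.19%). Between the siRNA arrays 0 kept members were 1.5-fold apart, against 8.86% of kept genes. IGFBP5 was picked for its ratios to control, so the shares against control are given without being read against that background.

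The other measured binding proteins differed little between arrays and lay below the filter level. IGFBP3, the main carrier of IGFs in the circulation, had a log2 level of 6.12 on the control and siRNA-2 arrays and 6.10 with siRNA-1. IGFBP6, which prefers IGF2 as its ligand, stood at 6.42 on the control and siRNA-1 arrays and at 6.49 with siRNA-2. At such levels it is not known whether the transcripts were above background, so these near-equal values do not show an unchanged amount.

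**Figure D1:**
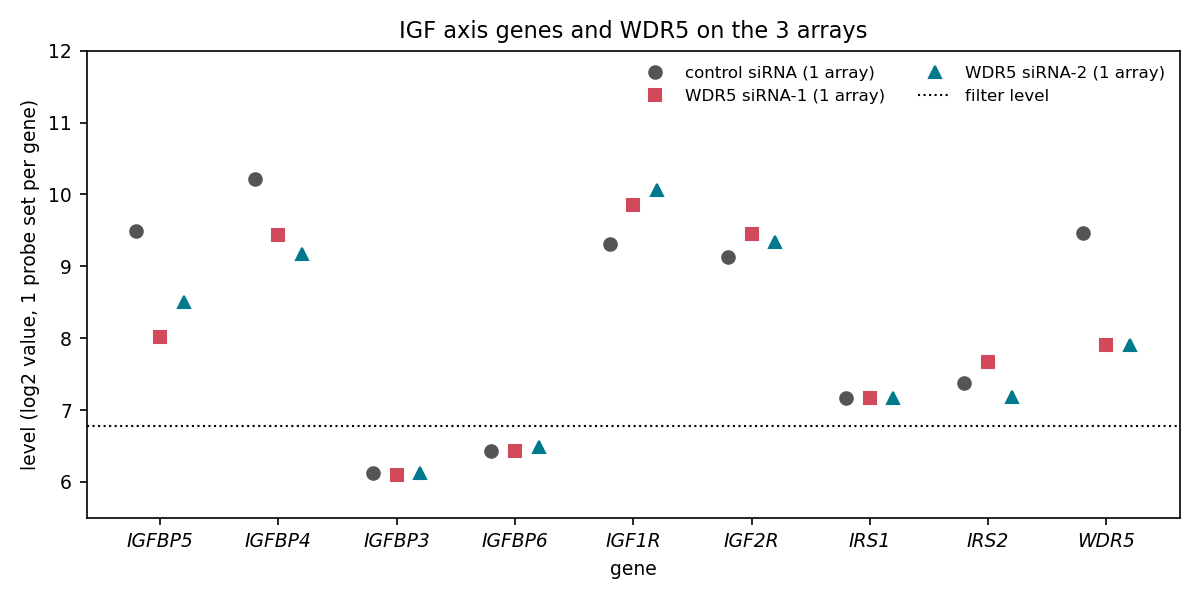
Log2 level (vertical axis) of the 8 measured IGF axis genes and WDR5 on each of the 3 arrays, 1 point per array, with the filter level of 6.78 as a dotted line. The control point lies above both siRNA points for IGFBP5, IGFBP4 and WDR5 and below both for IGF1R and IGF2R, and the points of IRS1 coincide in level; levels of different genes are not comparable.

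The promoters of the pair of binding proteins that were lower together are shown because they share this pattern. Both are the 250 bases before the RefSeq start on GRCh38.p14, at chr2:216695550-216695799 on the minus strand for IGFBP5 and at chr17:40443200-40443449 on the plus strand for IGFBP4, written 5′ to 3′ on the gene's strand. Capitals mark exact matches, on either strand, to the canonical E-box CACGTG (the letters bound by MYC family proteins), the TATA box TATAAA or the GC box GGGCGG.
IGFBP5: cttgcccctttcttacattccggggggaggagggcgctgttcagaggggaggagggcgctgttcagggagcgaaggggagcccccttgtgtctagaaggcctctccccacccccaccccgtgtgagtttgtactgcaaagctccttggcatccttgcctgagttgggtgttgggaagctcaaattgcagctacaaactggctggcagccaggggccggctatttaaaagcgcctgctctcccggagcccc
IGFBP4: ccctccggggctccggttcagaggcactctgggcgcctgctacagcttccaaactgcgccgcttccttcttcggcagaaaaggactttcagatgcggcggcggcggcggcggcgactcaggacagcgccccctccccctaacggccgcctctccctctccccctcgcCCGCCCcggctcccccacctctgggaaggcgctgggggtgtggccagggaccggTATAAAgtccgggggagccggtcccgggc
The IGFBP5 window held 0 exact matches to the 3 motifs. Variants of these letters, such as the tatttaaa near the end of the IGFBP5 window, were not searched. The IGFBP4 window held 1 TATA box, beginning 29 bases before the start, and 1 GC box. Among the 35116 promoters of the RefSeq table, 6.34% held the E-box, 10.7% the TATA box and 42.6% the GC box in the same 250 bases. The GC content was 61.2% for IGFBP5 and 71.6% for IGFBP4, against a median of 58% over all promoters, and the CpG count was 8 for IGFBP5 and 24 for IGFBP4. The windows therefore differ in the exact matches they hold and in their CpG count. A match is a description of the letters and not evidence of binding.

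IGF1R and IGF2R lay on the other side of control from these binding proteins. IGF1R, the signalling receptor, had a log2 level of 9.31 on the control array, 9.85 on the siRNA-1 array and 10.06 with siRNA-2. It was lowest with the control siRNA and highest with siRNA-2. The ratio was 1.46-fold with siRNA-1, just short of the 1.5-fold limit, and 1.69-fold with siRNA-2, and 57 kept genes had a higher shared ratio. The siRNA arrays differed by 0.21, less than either differed from control. IGF2R, the clearance receptor, stood at 9.13 with control, 9.45 on the siRNA-1 array and 9.34 with siRNA-2. Its log2 ratios were 0.32 and 0.21, and 375 kept genes had a higher shared ratio. Both differences of IGF2R were smaller than the 95th percentile of differences between the siRNA arrays. So were both of IGF1R, though its siRNA-2 ratio of 0.754 was within rounding of that percentile (0.757). Of the lower binding proteins, IGFBP4 was only just past that percentile in size with siRNA-1, at -0.779.

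The promoters of the receptors are shown for the same 3 motifs, at chr15:98648289-98648538 for IGF1R and chr6:159968832-159969081 for IGF2R, both on the plus strand of GRCh38.p14.
IGF1R: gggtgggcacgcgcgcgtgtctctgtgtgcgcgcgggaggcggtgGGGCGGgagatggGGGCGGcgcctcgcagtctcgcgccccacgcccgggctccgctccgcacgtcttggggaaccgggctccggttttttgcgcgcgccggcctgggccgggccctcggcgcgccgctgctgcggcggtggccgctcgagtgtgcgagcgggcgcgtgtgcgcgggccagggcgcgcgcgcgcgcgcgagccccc
IGF2R: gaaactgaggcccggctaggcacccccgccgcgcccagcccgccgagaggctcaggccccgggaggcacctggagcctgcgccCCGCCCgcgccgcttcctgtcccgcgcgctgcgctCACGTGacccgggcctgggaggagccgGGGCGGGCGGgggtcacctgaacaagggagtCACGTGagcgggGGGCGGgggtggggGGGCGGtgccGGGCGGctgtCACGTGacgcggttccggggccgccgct
The IGF2R window held 3 E-boxes, beginning 132, 74 and 28 bases before the start, and 6 GC boxes, of which 2 overlap. IGF2R was the 1 gene of the 9 with an E-box in this window, where IGFBP2 was searched for its promoter although its level was not analysed. The IGF1R window held 0 E-boxes, 0 TATA boxes and 2 GC boxes. Its GC content was 81.2% with 48 CpGs, and that of IGF2R 79.2% with 33 CpGs. Whether the E-boxes bear on the level of IGF2R, with its log2 ratios of 0.32 and 0.21, was not tested.

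The receptor substrates gave no common direction. IRS1, the first-described docking protein of insulin and IGF receptors, had the same log2 level of 7.16 on all 3 arrays. Such exact ties are frequent in this table, as 14.9% of kept genes had 1 value on all 3 arrays. IRS2, its close relative, stood at 7.38 with control, 7.67 on the siRNA-1 array and 7.18 with siRNA-2. It was 1.22-fold higher on the siRNA-1 array and 1.15-fold lower with siRNA-2, so that the control array lay between the others. The siRNA arrays differed by 0.49, more than either ratio to control.

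**Figure D2:**
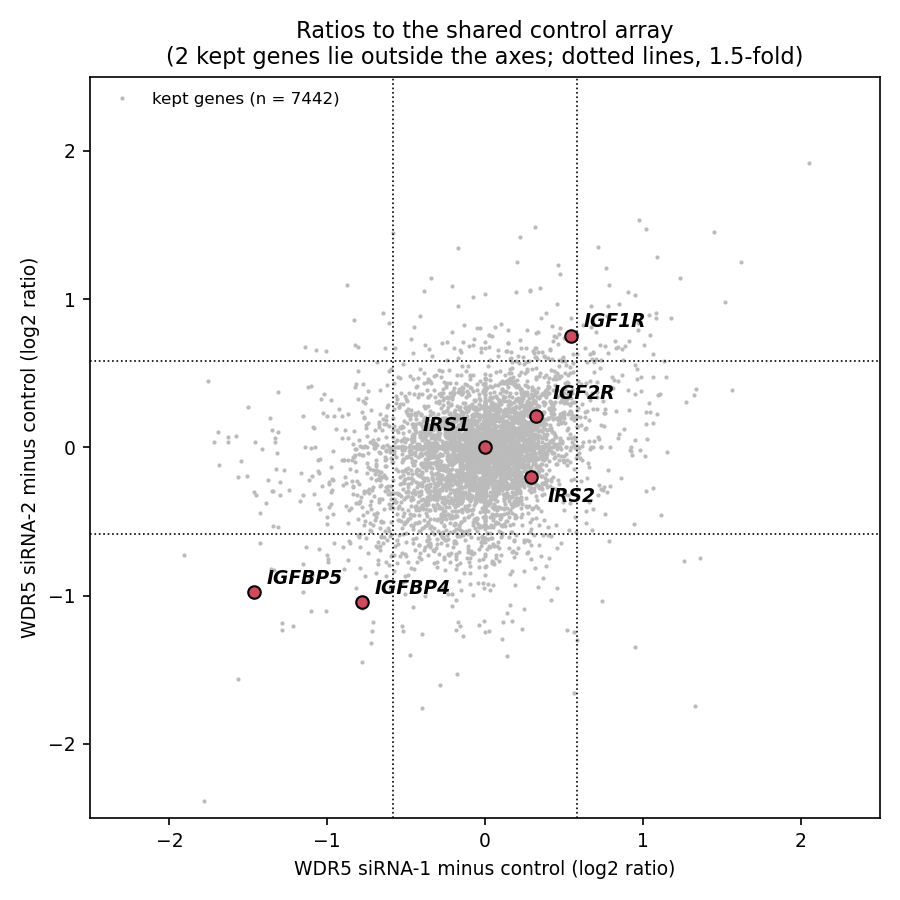
Log2 ratio to control with WDR5 siRNA-1 (horizontal axis) and with WDR5 siRNA-2 (vertical axis) for the 7442 kept genes (grey) and the 6 kept IGF axis genes (red), with 1.5-fold as dotted lines; 2 kept genes lie outside the axes. IGFBP5 and IGFBP4 lie beyond 1.5-fold at the lower left, IGF1R at the upper right beyond the line for siRNA-2 alone, and IRS1 at the centre; both axes share the control array.

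The rest of the pathway was read from lists written from general knowledge with earlier results of these data known. Of 131 listed genes that are no members, 60 were kept, and of these 0 lay 1.5-fold or more above control on both siRNA arrays and 1 lay as far below it. Over all kept genes 0.618% were higher and 0.847% lower by this rule, so such small counts are not read as a result about the pathway. Over these 60 genes the median log2 ratio was 0 with each siRNA, the same as over all kept genes. For the ligands, 1 of 3 listed genes was measured. IGF1 lay below the filter level, at 5.69 with control and siRNA-2 and 5.85 with siRNA-1.

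Among the 4 listed receptors, 3 were kept, with a median of 0.32 on the siRNA-1 array and 0.21 with siRNA-2, and their mean with siRNA-1 was of the other sign at -0.10. INSR, the insulin receptor, alone of the 3 was below control. Its log2 level was 7.83 with control, 6.67 on the siRNA-1 array and 7.51 with siRNA-2. Control was the highest and siRNA-1 the lowest, below the filter level, so the 2.23-fold lower value with siRNA-1 is uncertain in size, and its ratio with siRNA-2 was -0.32. The insulin receptor and IGF1R, which can form hybrid receptors, thus lay on opposite sides of control on both siRNA arrays.

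Of the 9 binding proteins and relatives listed, 4 were kept, with medians of -0.44 and -0.58. IGFBP7, a low-affinity relative, was lower by 0.10 and 0.19 on the log2 scale. IGFBPL1, an IGFBP-like protein gene, was higher by 0.39 on the siRNA-1 array, whereas its ratio for siRNA-2 was -0.02, or 0.005 after quantile normalization. IGFBP5 and IGFBP4 were the lowest of the 4. Without a filter on low levels, which adds IGFBP1, IGFBP3 and IGFBP6, the medians were -0.02 with each siRNA.

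Genes that act on the binding proteins were divided. The list of IGFBP proteases and their inhibitors had 4 kept genes of 11, with medians of -0.01 (0.01 after quantile normalization) and 0.27. Of these, 0 passed 1.5-fold with both siRNAs, against 0.618% higher and 0.847% lower over all kept genes. The siRNA-2 median of this list depended on the filter, being 0 without one and 0.05 with the 75th percentile filter. The mean of its kept genes with siRNA-2 was 0.16. STC1 encodes stanniocalcin-1, an inhibitor of PAPPA. Its log2 level was 10.61 with control, 9.304 on the siRNA-1 array and 10.08 with siRNA-2. It was thus 2.48-fold and 1.45-fold lower, the control being the highest. STC2, the other stanniocalcin, stood at 7.92 on the control and siRNA-1 arrays and was 1.41-fold higher with siRNA-2. ADAM9, a membrane metalloprotease gene, was 1.24-fold and 1.55-fold higher. PAPPA was not analysed here, and PAPPA2 was at 5.56 on every array.

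Downstream of the receptors, the 4 lists that follow held 0 genes at 1.5-fold with both siRNAs. Over all kept genes this rule gave 0.618% higher and 0.847% lower. The IRS and adaptor list had 15 kept genes of 31 with a median of 0 for each siRNA, and 4 of them stood above control on both siRNA arrays and 4 below it on both, against 18.0% and 22.3% of all kept genes. SOCS6, a suppressor of cytokine and insulin receptor signalling, was 1.33-fold and 1.44-fold higher. NCK1, an adaptor of receptor kinases, was 1.27-fold and 1.26-fold higher, and GRB2, the adaptor that recruits SOS to activate RAS, was 1.23-fold and 1.22-fold higher. DOK4, a docking protein related to the IRS proteins, was 1.80-fold lower on the siRNA-1 array and 1.17-fold lower with siRNA-2.

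The list of PI3K, AKT and mTOR genes had 17 kept of 33, also with a median of 0 for each siRNA. It held 0 genes at 1.5-fold with both, against 0.618% higher and 0.847% lower over all kept genes. EIF4EBP2, a translation repressor that mTOR inactivates, came nearest. Its log2 level was 12.49 with control, 11.76 on the siRNA-1 array and 11.93 with siRNA-2, or 1.66-fold and 1.47-fold lower. INPPL1, a phosphatase of PI3K products, was 1.33-fold and 1.14-fold lower. TSC1, a brake on mTOR, was 1.08-fold lower with each. DEPTOR, an inhibitory mTOR partner, differed between the siRNAs, being 1.03-fold higher on the siRNA-1 array and 1.68-fold higher with siRNA-2. AKT1S1, another inhibitory partner of mTOR, had log2 ratios of -0.40 for siRNA-1 and 0.14 for siRNA-2.

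The RAS, RAF and ERK list had 8 kept genes of 18, with medians of 0.15 and 0.05. SPRY4, a sprouty gene, had log2 ratios of 0.28 and 0.58, the second just under the limit of 0.585, and SPRY2 was 1.17-fold and 1.42-fold higher. DUSP4, a phosphatase of MAP kinases, was 1.88-fold higher on the siRNA-1 array and 1.19-fold with siRNA-2.

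FOXO factors and genes induced when insulin signalling is low had 10 kept genes of 20, with medians of -0.02 (0.004 after quantile normalization) and 0.06, and 5 of the 10 lay on opposite sides of control with the siRNAs by any amount, against 25.2% of all kept genes. SESN3, a sestrin that restrains mTOR, was 1.22-fold higher on the siRNA-1 array and 2.08-fold higher with siRNA-2. SESN2, its relative, was 1.44-fold lower on the siRNA-1 array and 1.23-fold higher with siRNA-2. KLF15, a metabolic transcription factor gene, was 1.08-fold lower with each. Among the IGF2 mRNA-binding proteins, 2 of 3 were kept. IGF2BP1 had log2 levels of 11.23, 11.24 and 11.24 with control, siRNA-1 and siRNA-2, and IGF2BP3 had a ratio of -0.01 with siRNA-1 (0.004 after median centring) beside 0.18 with siRNA-2.

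**Figure D3:**
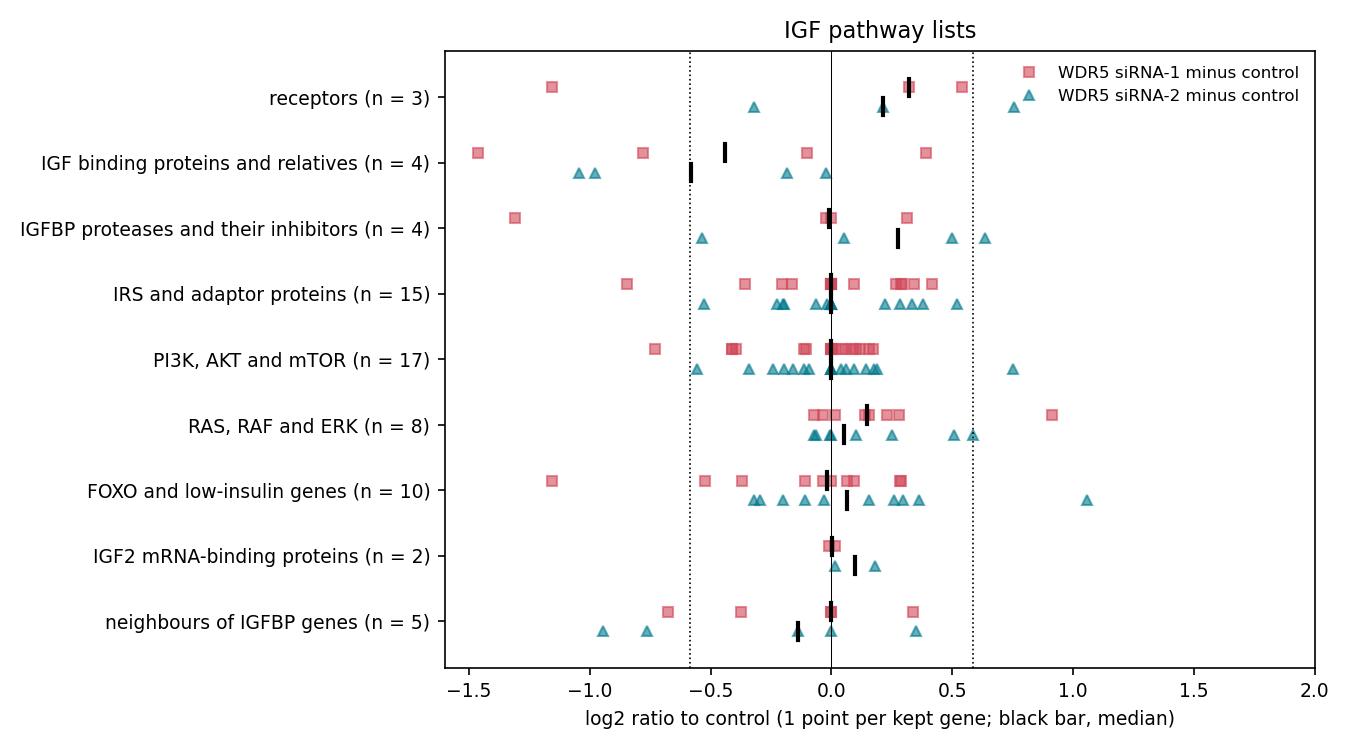
Log2 ratio to control of each kept gene of the pathway lists, squares for WDR5 siRNA-1 and triangles for WDR5 siRNA-2, with the median of each list as a black bar and 1.5-fold as dotted lines. The binding proteins have medians of -0.44 and -0.58 over 4 genes, among them IGFBP5, by which the set was chosen, and of -0.02 with each siRNA without the filter; genes on more than 1 list appear in each.

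IGFBP genes lie in pairs or singly beside tensin genes, so the ratios of neighbouring genes were read beside those of the members. In RefSeq gene order IGFBP2 lies between RPL37A and IGFBP5. Of the 5 protein-coding genes on each side of IGFBP5, 7 of 10 were measured and 3 kept. RPL37A, a ribosomal protein gene whose processed pseudogenes make its value uncertain, was 1.60-fold and 1.70-fold lower and was the 1 pathway-list gene outside the members that passed with both siRNAs. TNS1, a tensin gene of focal adhesions on the other side, was tied with control on the siRNA-1 array and 1.27-fold higher with siRNA-2. XRCC5, a DNA repair gene, stood at 13.06 on all 3 arrays. The kept genes around IGFBP5 therefore had no common direction.

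Around IGFBP4, 5 of 10 neighbours were measured and 2 kept. CDC6, a replication licensing gene, was lower by 0.37 and 0.52 on the log2 scale. TOP2A, the adjacent topoisomerase gene, had ratios of 0.003 and -0.11. TNS4 and the other measured neighbours lay below the filter level. Around IGF1R, 5 of 10 were measured and 4 kept. ARRDC4, an arrestin-like gene next to it, had ratios of 1.09 and 0.22, and MEF2A, a transcription factor gene, of 0.41 and 0.03. CHD2, a chromatin remodeller gene, had ratios of -0.16 and -0.33, and LRRC28 was tied at 0 with both, so these neighbours had no common direction either. Beside IGFBP6, SPRYD3 was 1.26-fold higher on the siRNA-1 array and 1.92-fold lower with siRNA-2, and beside IGFBP3 the adenylate cyclase gene ADCY1 had ratios of -0.37 and -0.14. Neighbours of IGFBP5, IGFBP4 and IGF1R that are on no list were chosen after values were seen, by gene order alone.

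**Figure D4:**
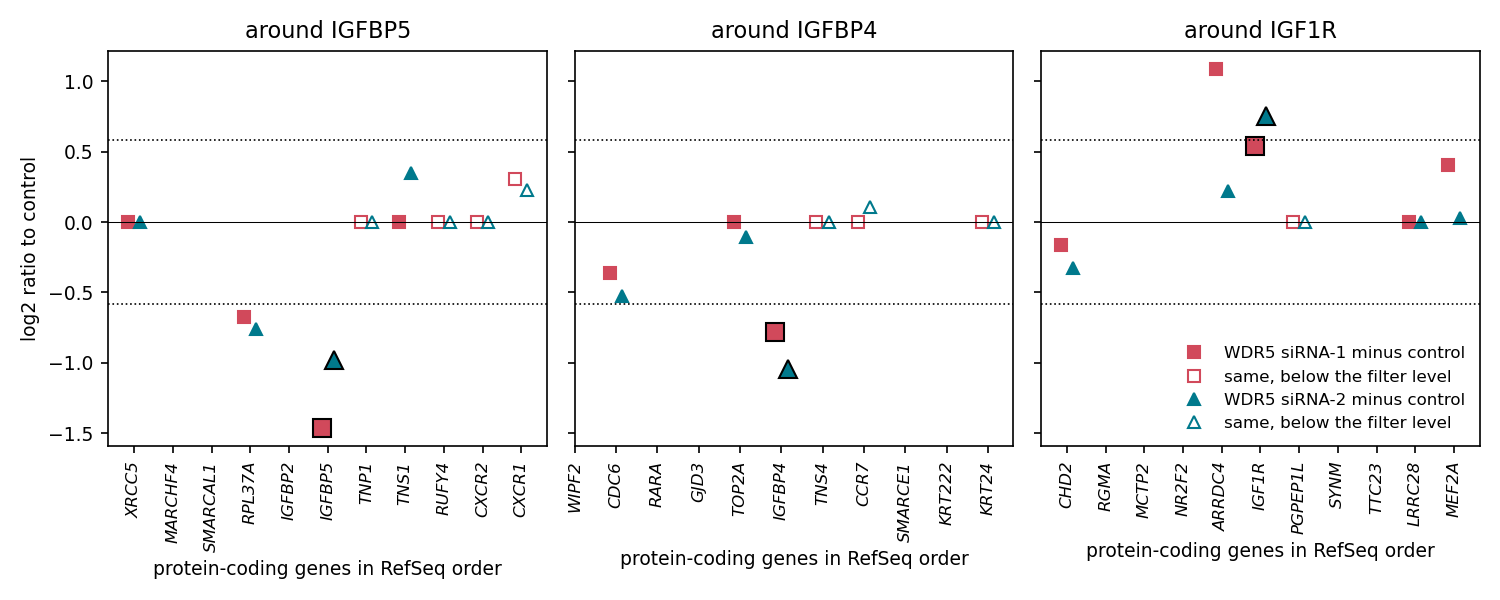
Log2 ratio to control of IGFBP5, IGFBP4 and IGF1R (large outlined symbols) and of the measured genes among the 5 protein-coding genes on each side in RefSeq order, squares for WDR5 siRNA-1, triangles for WDR5 siRNA-2 and open symbols for genes below the filter level. RPL37A lies beyond 1.5-fold (dotted) on the low side with both siRNAs near IGFBP5, whereas TOP2A and TNS4 beside IGFBP4 lie at or near 0; names without symbols were not analysed.

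The kept protein-coding genes whose pair of ratios lay nearest to that of IGFBP5, by Euclidean distance over the log2 ratios of both siRNAs to control, were GPD2, SCCPDH, SEPTIN14, CERK, DPYSL5 and E2F7. GPD2, a mitochondrial enzyme of the glycerol phosphate shuttle, was nearest, at a distance of 0.19. Its log2 level was 8.35 with control, 6.997 on the siRNA-1 array and 7.53 with siRNA-2. That GPD2 has the same order of arrays as IGFBP5 comes with its choice by distance. E2F7, a repressor of the E2F family, had the longest distance of the 6, 0.33, with ratios of -1.43 and -0.65. For IGFBP4 the nearest gene, found by the same measure after values were seen, was the ribosomal protein gene RPL34 at 0.04, and for IGF1R it was the cholesterol synthesis gene DHCR7 at 0.02, with ratios of 0.56 and 0.74. With 3 arrays, likeness rests on a pair of ratios.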

How the data were processed

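The authors' deposited table holds 1 value per probe set and array (53617 rows, 3 arrays), read as log2 from its range of 1.34 to 14.9, since no scale is stated. Per the submitters' processing notes MAS5 was used, with its role not given, and background correction, normalization and probe summary are not given in the sources used here. In 37.1% of rows the 3 arrays hold an identical value, and whether MAS5 produced these values is not known. Array number limits the precision. Of the rows, 16098 had 1 gene symbol, 0 several and 37519 none. All 16098 Entrez identifiers matched RefSeq (GRCh38.p14), which gave current symbols. The highest-mean probe set stood for a gene (779 genes had several), leaving 14884 genes, of which 7442 at or above the median level (6.78) were kept. No scaling was added. A gene was counted when at least 1.5-fold from control in 1 direction with both siRNAs. No p-value was computed, and the counting was tested on simulated data. Genes named are WDR5, the members, list genes past the limit, the 3 with the largest shared ratio and the 2 with the largest siRNA difference per list, and the 6 genes nearest to IGFBP5; others are named as chosen later. A few further genes (IGF1, PAPPA2) were named to account for a role. The members and lists were chosen with earlier results of these data known. The TATA and GC boxes were added after the E-box. Alternatives were other scalings, filters, folds and probe-set rules. The planned comparison of protein sequences was not run. Python 3.11.15, numpy 2.4.6 and pandas 2.3.3 were used.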

Additional observations from a re-analysis of the deposited data

Results flagged for a closer look

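Among the members and the pathway genes named by rule, 4 lay on opposite sides of control with the siRNAs by at least 0.1 on the log2 scale each way. With 1 array per siRNA the difference was not tested. For IRS2 the log2 ratio was 0.29 with siRNA-1 and -0.20 with siRNA-2, a difference of 0.49. For AKT1S1 the values were -0.40 and 0.14, a difference of -0.54. For SESN2 they were -0.52 and 0.29, a difference of -0.82. For SPRYD3 they were 0.34 and -0.94, a difference of 1.28. By the same rule 11.1% of all kept genes lay on opposite sides of control, and the naming rule picks genes with large siRNA differences. SESN2 and SPRYD3 were also at least 1.5-fold apart between the siRNA arrays, as were 8.86% of kept genes.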

How the results depend on the processing

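Under quantile normalization and median centring, every member ratio stayed on its side of the 1.5-fold limit. The mean of probe sets could not change a member ratio, since each measured member had 1 probe set. IGFBP5 ranged from -1.46 to -1.45 with siRNA-1 and from -0.98 to -0.93 with siRNA-2. IGFBP4 ranged from -0.78 to -0.77 and from -1.04 to -1.01, and IGF1R from 0.54 to 0.55 and from 0.75 to 0.79. IRS1, at 0 with both siRNAs as deposited, reached at most 0.05. The fold limit set the counts by construction. With a lower fold limit of 0.32 on the log2 scale, 1 member was higher with both siRNAs, and the other pathway genes gave 2 higher and 3 lower. At 2-fold, 0 members and 0 other pathway genes were lower with both. With the 75th percentile filter 0 other pathway genes were lower, since RPL37A lay below it, and over all genes 33 were higher and 30 lower in place of 46 and 63. Over all kept genes the lower limit gave 184 higher and 281 lower and the 2-fold limit 6 and 7. Quantile normalization gave 51 higher and 51 lower. Of the list medians under the alternatives, 19 moved by 0.1 or more, each under another filter or with the list mean, and 87 did not. No paired analysis was possible because each group had 1 array. The number of arrays limits every value, and for genes below the filter level the signal may limit it too.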
